A study of Mus musculus with 12 samples.

Results

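The 10 genes described here encode the enzymes that make serine from a glycolytic intermediate and the enzymes that pass the serine carbon through folate. They were listed by name and read through the probe sets annotated to 1 symbol only, which gave 1 probe set for each of the 10, out of 19938 genes measured that way. Phgdh, Psat1 and Psph form the serine synthesis branch, Shmt1, Mthfd1 and Aldh1l1 the cytosolic folate arm, and Shmt2, Mthfd2, Mthfd1l and Aldh1l2 the mitochondrial folate arm. Liver RNA was hybridised to 12 single-colour Affymetrix arrays, 3 in each of 4 groups. All mice were males of the C57BL/6N background, 110 days old at collection and fasted for 6 hours. Wild-type (WT) mice and mice homozygous for the Lmna G609G knock-in allele (KI), a model of Hutchinson-Gilford progeria, ate from 7 weeks of age either a control diet (CD) or a methionine-restricted diet (MR). The groups are therefore WT_CD, WT_MR, KI_CD and KI_MR, and the knock-in mice carry the allele in every tissue. Whether each array holds a mouse of its own is not in the labels, so the tests measure the spread between these arrays. An array level of Lmna does not report a point mutation and was not used to check the genotype labels.

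Serine is made from 3-phosphoglycerate in 3 steps, catalysed in order by PHGDH, PSAT1 and PSPH. Serine hydroxymethyltransferases then move a carbon from serine to tetrahydrofolate and leave glycine. The carbon can be oxidised to formate in mitochondria and used in the cytosol for purines, thymidylate and the remethylation of homocysteine to methionine, and in liver the cytosolic enzymes are abundant. Genes of serine synthesis and of the mitochondrial arm are known targets of ATF4, a transcription factor induced when amino acids are short.

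The 3 serine synthesis genes and 2 of the 4 mitochondrial arm genes were higher on the restricted diet when both genotypes were averaged. The cytosolic arm genes, like most genes measured, did not pass the test there. In that average, Psat1 was 4.90-fold, Mthfd2 3.19-fold, Aldh1l2 2.96-fold, Phgdh 2.23-fold and Psph 1.35-fold higher on the restricted diet. These 5 of the 10 genes passed an adjusted p of 0.05 in limma, all upward, against 0.607% of all genes called higher in that contrast. Mthfd1l was higher by 0.49 on the log2 scale and missed the threshold, and Shmt2, the first enzyme of the mitochondrial arm, differed by -0.01. Within each genotype alone Aldh1l2 passed and the other genes did not. No member passed in any comparison of the genotypes.

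Stretches of 120 bases upstream of the annotated start are printed for 4 genes that rose with the diet and, for contrast, for Shmt1 and Shmt2, which did not pass. They come from the RefSeq promoter table of build GRCm38.p6, read 5′ to 3′ on the gene's strand, and capitals mark the motif CCAAT, its reverse complement ATTGG, or the core TGACNNNGC on either strand.
Phgdh, chr3:98339970-98340089, minus strand: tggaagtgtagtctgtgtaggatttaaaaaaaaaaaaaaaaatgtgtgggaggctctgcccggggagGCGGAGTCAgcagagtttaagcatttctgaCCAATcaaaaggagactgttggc
Psat1, chr19:15925060-15925179, minus strand: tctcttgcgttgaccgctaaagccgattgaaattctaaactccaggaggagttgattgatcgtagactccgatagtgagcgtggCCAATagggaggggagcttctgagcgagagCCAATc
Psph, chr5:129787254-129787373, minus strand: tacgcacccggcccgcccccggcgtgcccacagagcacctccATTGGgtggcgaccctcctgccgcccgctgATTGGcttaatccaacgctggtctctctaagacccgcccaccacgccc
Mthfd2, chr6:83317605-83317724, minus strand: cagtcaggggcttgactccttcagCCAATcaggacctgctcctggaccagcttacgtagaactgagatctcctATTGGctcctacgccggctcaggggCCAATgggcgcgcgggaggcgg
Shmt1, chr11:60811266-60811385, minus strand: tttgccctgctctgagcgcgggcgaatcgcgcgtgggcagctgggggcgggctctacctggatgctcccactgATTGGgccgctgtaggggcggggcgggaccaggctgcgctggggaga
Shmt2, chr10:127522445-127522564, minus strand: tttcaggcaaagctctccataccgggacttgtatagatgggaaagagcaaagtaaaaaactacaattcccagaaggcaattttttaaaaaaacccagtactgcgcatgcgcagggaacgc
The table held 10 windows for 9 of the 10 genes, Psat1 having 2, and Aldh1l2 was not matched. Each window runs from 250 bases before to 50 bases after the start. The core of the C/EBP-ATF response element, TGATGNAA, was found on either strand in 0 of the 10 windows, against 3.97% of all 32851 windows. The cyclic AMP response element TGACGTCA and the E-box CACGTG were each also found in 0 of the 10, against 1.79% and 7.15% of all windows. The antioxidant response element core TGACNNNGC lay 53 bases upstream of the start of Phgdh and 4 bases past that of Psph, and 12.4% of all windows held it. CCAAT, searched after the sequences had been seen, was in 7 of the 10 windows against 37.4% of all windows. Its 7 genes included members that rose (Phgdh, Psat1, Psph, Mthfd2) and members that did not pass (Shmt1, Mthfd1, Aldh1l1). The Shmt2 and Mthfd1l windows had none, nor did the second Psat1 window, which is not printed. A match is a description of letters, and these windows do not cover introns or distant elements.

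Levels are the authors' deposited intensities, which are linear and in arbitrary units, with array medians between 82 and 90. Intensities of different probe sets are not on a common scale, so each gene is compared only with itself across arrays. One array stood apart before any test. KI_CD replicate 1 had a mean correlation with its group of 0.986 over all genes, against 0.989 to 0.994 for the others. It read Psat1 higher by 2.07 and Mthfd2 by 1.26 on the log2 scale than the mean of KI_CD replicates 2 and 3, and 0.226% and 0.802% of all genes departed further. Its median departure was 0.67 over 23 amino acid response genes and 1.23 over 5 proliferating-cell markers. It was 0.42 for Kupffer cell and macrophage, 0.42 for stellate and 0.35 for cholangiocyte markers. For pericentral and periportal markers it was -0.28 and -0.23, and the other lists ran from -0.17 to 0.098. The part of these markers in the members' values was not tested, and results that depend on this array are given with and without it. The 7 measured hepatocyte markers summed to intensities of 69894 to 84463. None of 35 measured markers of other liver cell types and of proliferating cells passed with diet in either genotype or on average. Of all genes 0.326% passed in WT, 0.176% in KI and 1.21% on average, so this count says little about cell composition. In whole tissue, fewer cells of a type and less RNA per cell cannot be told apart.

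**Figure D1:**
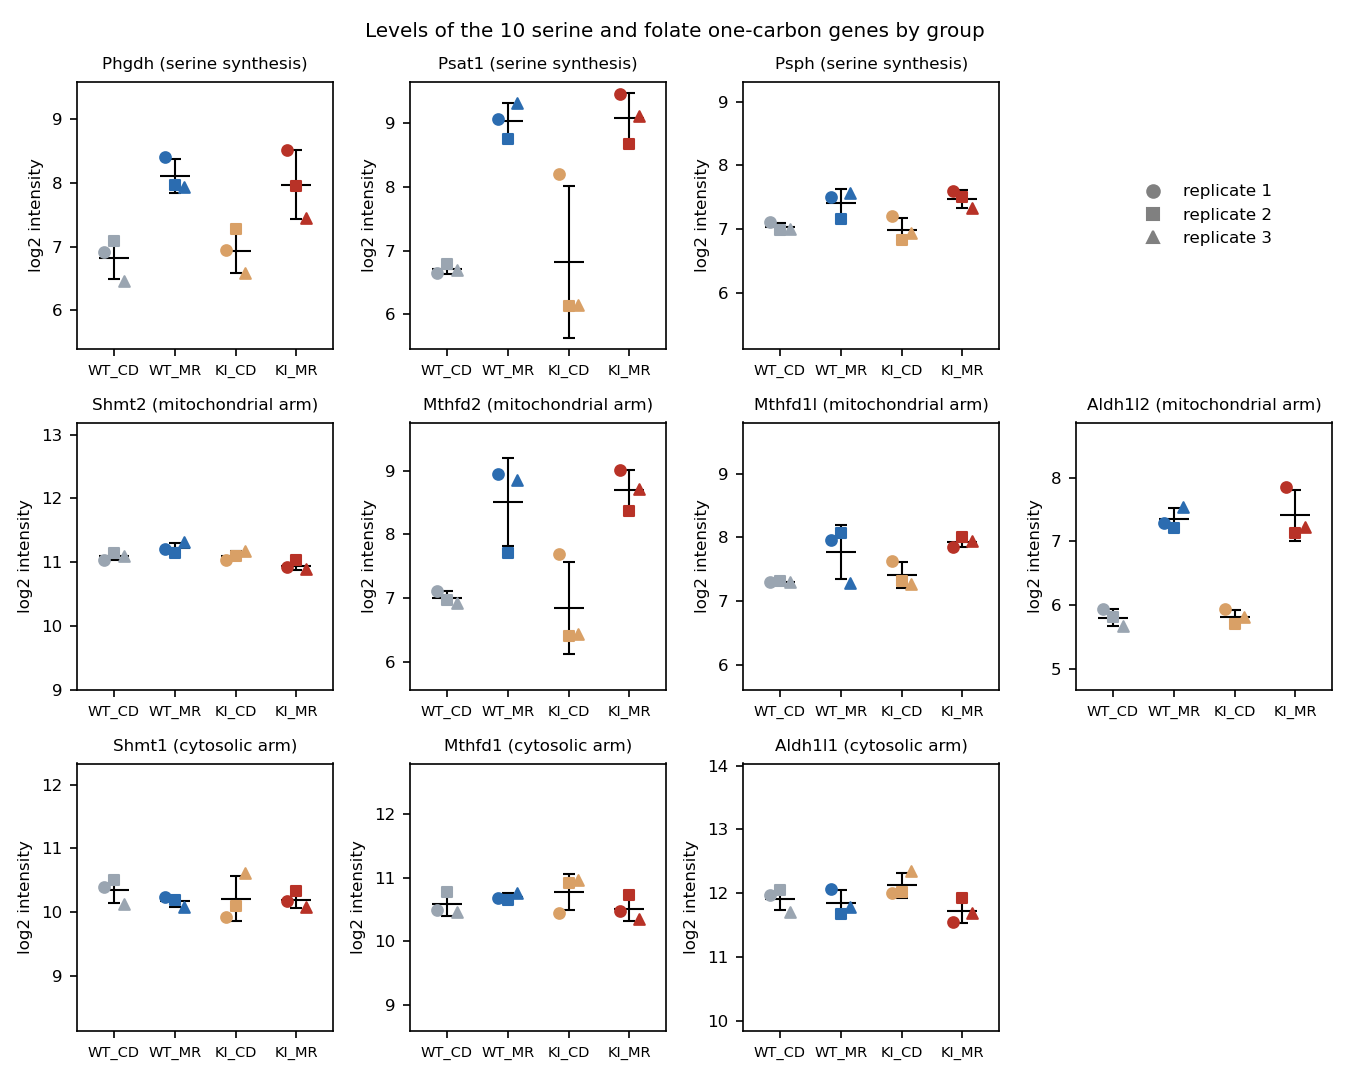
Log2 intensity of each of the 10 genes on the 12 arrays, 1 panel a gene, with arrays as points, group means as long bars and SD as error bars (n = 3); every vertical axis spans the same log2 range, placed at the gene's own level. The restricted groups lie above the control groups for Phgdh, Psat1, Mthfd2 and Aldh1l2, and 1 KI_CD array lies high for Psat1 and Mthfd2.

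The serine synthesis genes passed in the average over genotypes and not within either genotype. PHGDH catalyses the first and committed step of the pathway. Phgdh read 121, 136 and 88 in WT_CD, 341, 251 and 245 in WT_MR, 124, 155 and 96 in KI_CD, and 368, 247 and 174 in KI_MR. All 6 restricted arrays lay above all 6 control arrays, with log2 ranges of 7.44 to 8.52 and 6.46 to 7.28, and the lowest restricted value was a KI_MR array. The log2 change was 1.29 ± 0.27 (SE) in WT and 1.03 ± 0.27 in KI, with adjusted p of 0.0887 and 0.225 in limma, so neither genotype passed alone. Averaged over both, the change was 1.16 ± 0.19 with an adjusted p of 0.0158.

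PSAT1 is the aminotransferase that follows, and its gene had the largest diet change of the 10. Psat1 intensities were 100, 111 and 104 in WT_CD and 534, 432 and 637 in WT_MR. They were 296, 70 and 71 in KI_CD and 707, 410 and 554 in KI_MR. The wild-type control arrays were tight, 1 array of the control knock-in group lay between the diets' other arrays, and no restricted array overlapped a control array. The change was 2.33 ± 0.45 in WT (adjusted p = 0.0624), 2.26 ± 0.45 in KI (adjusted p = 0.0999) and 2.29 ± 0.32 on average (adjusted p = 0.00669, limma). Without KI_CD replicate 1 the changes passed in both genotypes, at 2.95 in KI (adjusted p = 1.44e-04) and with an adjusted p of 2.60e-04 in WT. The WT change also passed with WT_MR and WT_CD fitted alone (adjusted p = 0.00160).

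PSPH releases serine in the last step, and Psph changed less. It read 138, 126 and 128 in WT_CD, 181, 142 and 190 in WT_MR, 147, 114 and 122 in KI_CD, and 193, 181 and 160 in KI_MR. The diets did not overlap within either genotype, but WT_MR replicate 2 lay below KI_CD replicate 1. The average change was 0.43 ± 0.089 with an adjusted p of 0.0435 in limma, close to the threshold. This call was lost in 10 of the 12 fits that left out 1 array, with adjusted p up to 0.119, and the exceptions were the fits without WT_MR replicate 2 and without KI_CD replicate 1.

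In the mitochondrial arm the 4 genes did not move alike. ALDH1L2 oxidises formyl-tetrahydrofolate in mitochondria, and its gene had the smallest adjusted p of the members. Aldh1l2 read 61, 56 and 51 in WT_CD, 156, 148 and 186 in WT_MR, 61, 52 and 56 in KI_CD, and 232, 140 and 150 in KI_MR. Control arrays were close together in both genotypes, every restricted array was more than double them, and KI_MR replicate 1 was the highest. The change was 1.54 ± 0.17 in WT (2.91-fold, adjusted p = 0.00326) and 1.59 ± 0.17 in KI (3.02-fold, adjusted p = 0.00471) in limma. It was the 1 member of the 10 that passed within each genotype, where 0.211% of all genes in WT and 0.0602% in KI were called higher. The average change of 1.57 ± 0.12 (adjusted p = 2.53e-04) ranked 3 by p among the 19938 genes. Its control-diet levels, 5.67 to 5.93 on the log2 scale, lay little above the arrays' lower quartile of gene levels, 5.49 to 5.67. The knock-in call was lost when KI_MR and KI_CD were fitted alone (adjusted p = 0.212).

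MTHFD2 is the mitochondrial methylenetetrahydrofolate dehydrogenase and cyclohydrolase. Mthfd2 intensities were 139, 126 and 122 in WT_CD, 495, 210 and 464 in WT_MR, 206, 85 and 87 in KI_CD, and 514, 331 and 418 in KI_MR. WT_MR replicate 2 and KI_CD replicate 1 nearly met, at 210 and 206, and all other restricted arrays were clear of the control arrays. The change was 1.499 ± 0.37 in WT (adjusted p = 0.161) and 1.85 in KI (adjusted p = 0.0999), and the average of 1.67 ± 0.26 passed (adjusted p = 0.0120, limma). Without KI_CD replicate 1 both genotypes passed, with a change of 2.27 in KI (adjusted p = 0.0107) and an adjusted p of 0.0327 in WT.

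MTHFD1L, the mitochondrial formyl-tetrahydrofolate synthetase, releases formate. Mthfd1l read 158, 159 and 158 in WT_CD, 250, 268 and 156 in WT_MR, 199, 160 and 154 in KI_CD, and 230, 256 and 246 in KI_MR. One WT_MR array, replicate 3, stayed at the control level and the other 5 restricted arrays were above all control arrays. The average change of 0.49 ± 0.12 had an adjusted p of 0.0937 in limma. Without WT_MR replicate 3 it was 0.62 (adjusted p = 0.00454), and the WT change of 0.47 became 0.71 (adjusted p = 0.0348). Without KI_CD replicate 1 the average change was 0.55 (adjusted p = 0.0457).

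SHMT2 is the mitochondrial serine hydroxymethyltransferase that feeds the arm. Shmt2 read 2092, 2254 and 2201 in WT_CD, 2360, 2263 and 2546 in WT_MR, 2107, 2189 and 2308 in KI_CD, and 1939, 2097 and 1893 in KI_MR. Every WT_MR array lay above every WT_CD array, as for 6.35% of all genes. Every KI_MR array lay below every KI_CD array, as for 6.99% of all genes. The changes were small, at 0.13 ± 0.071 in WT (adjusted p = 0.732) and -0.16 in KI (adjusted p = 0.641). The average of -0.01 had a 95% interval of -0.12 to 0.10 on the log2 scale, an interval that leaves out the average changes of Mthfd2 and Aldh1l2.

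**Figure D2:**
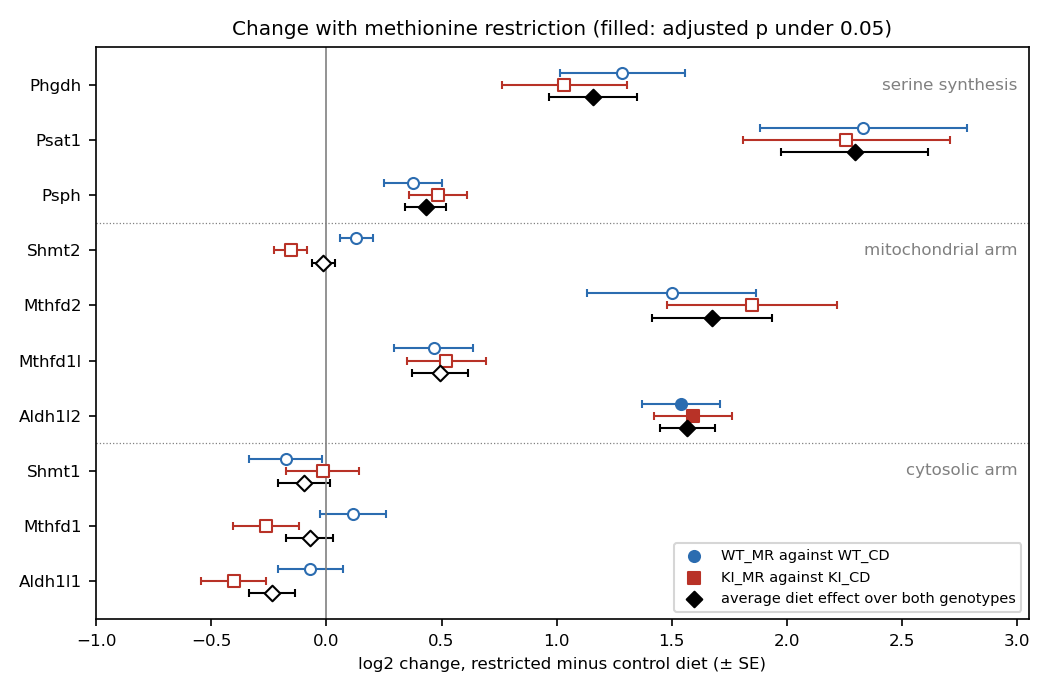
Log2 change, restricted minus control diet, of the 10 genes in wild-type liver, knock-in liver and their average; points are limma estimates, filled where adjusted p was under 0.05, and bars are SE, with genes grouped by serine synthesis, mitochondrial and cytosolic arm. Psat1 has the largest estimates, 2.33 and 2.26, and the 3 cytosolic genes lie between -0.40 and 0.12.

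No gene of the cytosolic arm passed with diet. Of all genes 1.21% passed on average, 0.326% in WT and 0.176% in KI, so the lack of calls in this arm is near the share of all genes. Shmt1, the cytosolic serine hydroxymethyltransferase, read 1342, 1457 and 1116 in WT_CD, 1201, 1165 and 1080 in WT_MR, 974, 1087 and 1563 in KI_CD, and 1154, 1285 and 1080 in KI_MR. The groups overlapped in both genotypes, and KI_CD was the widest of them. The average change was -0.10 ± 0.11, with an adjusted p of 0.886 in limma and a 95% interval of -0.34 to 0.15. Mthfd1 encodes the trifunctional cytosolic enzyme, and it read 1442, 1761 and 1411 in WT_CD, 1649, 1598 and 1733 in WT_MR, 1399, 1941 and 1992 in KI_CD, and 1421, 1692 and 1303 in KI_MR. These groups overlapped too, and the average change was -0.07 ± 0.10 (adjusted p = 0.910, 95% interval -0.30 to 0.15).

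ALDH1L1 is the cytosolic formyl-tetrahydrofolate dehydrogenase, the counterpart of ALDH1L2. Aldh1l1 read 4037, 4239 and 3345 in WT_CD, 4299, 3279 and 3515 in WT_MR, 4091, 4168 and 5205 in KI_CD, and 2989, 3896 and 3295 in KI_MR. The diets overlapped in WT, while in KI every restricted array lay below every control array. The changes were -0.07 ± 0.14 in WT and -0.40 in KI (adjusted p = 0.455), and the average of -0.24 ± 0.10 had an unadjusted p of 0.0387 and an adjusted p of 0.407 in limma.

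Counted over all 10 genes, diet groups did not overlap for 6 genes in WT, all higher on the restricted diet, as were 6.35% of all genes without overlap. In KI they did not overlap for 8 genes, of which 6 were higher and 2, Shmt2 and Aldh1l1, lower, against 3.67% and 6.99% of all genes. With 3 arrays against 3, an exact permutation test cannot go below a two-sided p of 0.1. The median log2 change of the 10 was 0.42 in WT, 0.50 in KI and 0.46 on average, beside -0.00, -0.02 and -0.01 over all genes. The WT and KI changes come from different arrays, but their limma tests share an estimate of each gene's spread taken over all groups. The p values of the genotypes are therefore not independent. Leaving out KI_CD replicate 1 kept the Psat1 change in WT at 2.33 but moved its adjusted p from 0.0624 to 2.60e-04 (limma).

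The arms were compared within each array, as the mean log2 level of the 4 mitochondrial genes minus that of the 3 cytosolic genes; only its change between groups can be read. It was -3.11, -3.30 and -3.01 in WT_CD and -2.14, -2.30 and -2.12 in WT_MR. It was -2.72, -3.38 and -3.63 in KI_CD and -1.82, -2.36 and -2.01 in KI_MR. All 6 restricted arrays lay above all 6 control arrays, and KI_CD replicate 1 was the control array closest to them. The difference rose from -3.14 ± 0.15 (SD, n = 3) to -2.19 ± 0.098 in WT, a shift of 0.95, and from -3.24 ± 0.47 to -2.06 ± 0.27 in KI, a shift of 1.18. No p is given for this mean over members.

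The shift came with a change of 0.91 in WT and 0.95 in KI in the mitochondrial arm, without overlap of the diets, and of -0.04 and -0.23 in the cytosolic arm, where the diets overlapped. Without Aldh1l2 the shift was 0.74 in WT and 0.96 in KI. The serine synthesis mean changed by 1.33 in WT and 1.26 in KI. Between the genotypes the arm difference changed by -0.10 on the control diet and 0.12 on the restricted diet, and the genotypes overlapped on both. With 1 array left out these values ranged from -0.36, without KI_CD replicate 1, to 0.093 and from 0.0036 to 0.27.

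Pairs of enzymes with matching reactions showed where the arms parted. Aldh1l2 minus Aldh1l1 rose by 1.61 in WT and 1.996 in KI, and the diets did not overlap in either genotype. Mthfd2 minus Mthfd1 rose by 1.38 and 2.11, again without overlap. Mthfd1l minus Mthfd1 rose by 0.35 in WT, where the diets overlapped, and by 0.78 in KI, where they did not. For the first pair of the arms, Shmt2 minus Shmt1, the change was 0.31 in WT and -0.14 in KI with overlap in both.

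**Figure D3:**
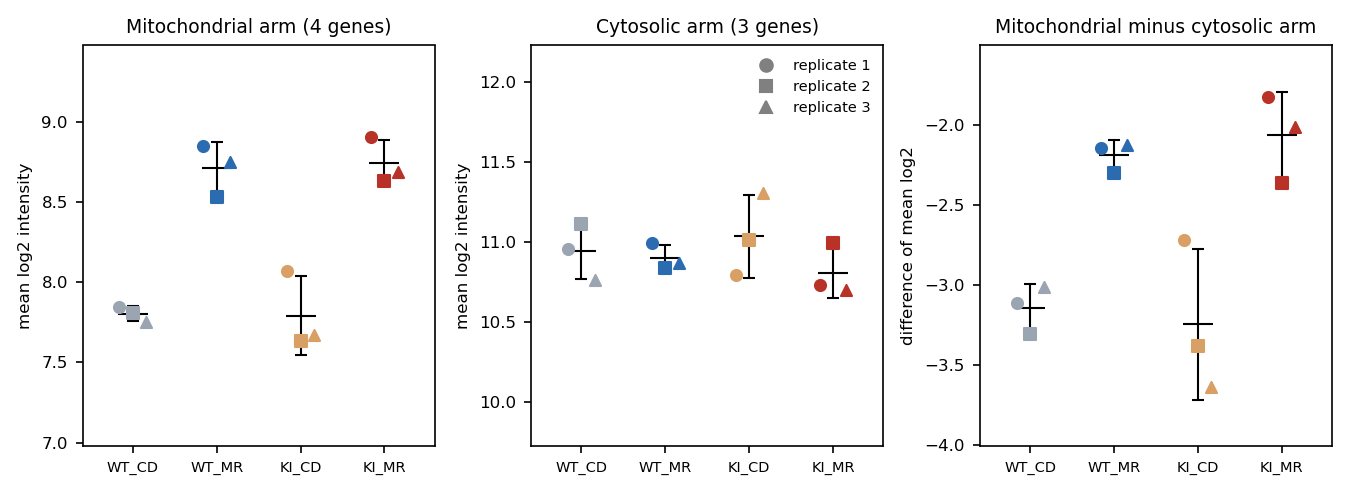
Mean log2 intensity of the mitochondrial arm, of the cytosolic arm, and the first minus the second, on each array by group, with group means and SD (n = 3). In the difference, restricted arrays lie between -2.36 and -1.82 and control arrays between -3.63 and -2.72.

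Between the genotypes 0 of the 10 genes passed on either diet, and 0 passed in the average over diets. On the control diet 0.0802% of all genes passed, and the members' KI minus WT changes ran from -0.16 (Mthfd2) to 0.21 (Aldh1l1), with a lowest adjusted p of 0.578 in limma and 0 members at an unadjusted p under 0.05, where 11.2% of all genes were. The Psat1 difference there was 0.12 and turned to -0.57 (adjusted p = 0.384) without KI_CD replicate 1. On the restricted diet 0.471% of all genes passed, and the members ran from -0.27 (Shmt2) to 0.19 (Mthfd2), with 1 at an unadjusted p under 0.05, where 14.1% of all genes were. The lowest adjusted p there was for Shmt2, at -0.27 ± 0.071 (adjusted p = 0.115), whose KI_MR arrays lay below all WT_MR arrays, as did 8.82% of all genes. Averaged over diets, where 2.81% of all genes passed, members ran from -0.13 to 0.13 and 1 had an unadjusted p under 0.05, as did 22% of all genes.

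The difference of the diet change between genotypes was tested as an interaction, in which 0 members and 0 of all genes passed in limma, with 1 member and 824 genes (4.13%) at an unadjusted p under 0.05. The member was Shmt2, at -0.29 ± 0.10 (unadjusted p = 0.0158, adjusted p = 1). For Aldh1l2 the interaction was 0.05 with a 95% interval of -0.47 to 0.58, and for Psat1 it was -0.07 with an interval of -1.47 to 1.32. These intervals, and that of Mthfd2 from -0.80 to 1.496, are wide enough to hold sizeable differences between the genotypes.

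Around these enzymes, 3 lists of related genes were counted in the same fit. Of 23 genes for the folate cycle, folate transport and folate users, 19 were measured. With diet 1 fell and 0 rose on average, where 1.21% of all genes passed in either direction. The one that fell was Ftcd, which breaks down formiminoglutamate in histidine catabolism with a folate carrier, by 0.41 on average (adjusted p = 0.0216, limma), by 0.64 in WT (adjusted p = 0.0272) and by 0.18 in KI, which did not pass. Its average and WT calls were each lost in 6 of the 12 fits that left out 1 array (adjusted p up to 0.0704 and 0.120). The next by p were Mthfd2l, a second mitochondrial dehydrogenase, at 0.19 (adjusted p = 0.128), Mtrr at 0.25 and Ggh at 0.25, none of which passed. The list's median average change was 0.03.

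Between genotypes, Ftcd was higher in KI by 0.32 (adjusted p = 0.0411) on average and by 0.55 on the restricted diet (adjusted p = 0.0485), and Folr2, a folate receptor also found on macrophages, was lower by 0.65 (adjusted p = 0.0421). All 3 calls were each lost in 10 of the 12 fits that left out 1 array. The Ftcd calls were also lost with the trend and robust prior (adjusted p = 0.0539 on average and 0.0593 on the restricted diet), the restricted-diet call also with the compared groups alone (adjusted p = 0.142), and the Folr2 call with log2(value + 32) (adjusted p = 0.0584). In the same genotype average all 8 Kupffer cell and macrophage markers were lower in KI, with a median of -0.26. Over all genes 61.2% were lower, with a median of -0.04. Of the 8 markers 0 passed and 2 had an unadjusted p under 0.05 in limma, as did 22% of all genes. The part of these cells in the Folr2 value was not tested.

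Of 23 genes that use or make glycine and serine beside the 10, 20 were measured, and 0 passed with diet in limma. On average 1.21% of all genes passed with diet in either direction. The median average change of the 20 was -0.08. The lowest p were those of Dmgdh at -0.33, Agxt at -0.41, Bhmt at -0.77 and Gamt at -0.25. Bhmt, which remethylates homocysteine with betaine, changed by -1.43 in KI and -0.11 in WT, and without KI_MR replicate 2 its changes passed in KI (-1.86, adjusted p = 0.00990) and on average (-0.99, adjusted p = 0.0133). Agxt, the peroxisomal enzyme that turns glyoxylate into glycine, was higher in KI by 0.59 averaged over diets (adjusted p = 0.0281), a call lost in 7 of the 12 fits that left out 1 array. For Gamt, which uses glycine-derived guanidinoacetate to make creatine, that genotype difference was -0.34 (adjusted p = 0.0546), which passed without the dimmest genes (adjusted p = 0.0474), without WT_CD replicate 3 (0.0429) and without WT_MR replicate 3 (0.0424).

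Of 24 amino acid response genes 23 were measured, and with diet 7 rose and 0 fell on average, 2 rose in WT and 3 in KI, where 0.607%, 0.211% and 0.0602% of all genes were called higher. Slc7a11, the cystine transporter, rose by 2.63 (adjusted p = 9.59e-04) and Asns, asparagine synthetase, by 2.48 (adjusted p = 0.00657) in limma. Mean Slc7a11 intensities of 35.3 in WT_CD and 38.3 in KI_CD lay below the arrays' lower quartile of gene levels, so the size of its change is uncertain, and with log2(value + 32) it was 1.91. Vldlr rose by 1.79, Slc3a2 by 0.97, Slc7a5 by 0.86, Adm2 by 0.71 and Atf5 by 0.64, with adjusted p from 0.00196 to 0.0262. The Atf5 call was lost in 8 and the Slc7a5 call in 1 of the 12 fits that left out 1 array. Other genes of the list did not pass, among them Atf4 at 0.16, Trib3 at 0.16, Chac1 at 0.28 and Fgf21 at 0.69, named after their values were seen. For some of them the genotypes differed in sign, Fgf21 changing by 1.70 in WT and -0.32 in KI and Trib3 by 0.51 and -0.19. Chac1 did so too, its mean log2 level going from 8.21 to 8.82 in WT and from 9.08 to 9.03 in KI. None of these changes passed. In KI_CD the SD was 1.02 for Fgf21 and 1.29 for Trib3, the largest of the 4 groups for each gene. The KI signs of Fgf21 and Trib3 therefore rest on a control group of wide spread. Their KI changes without KI_CD replicate 1 are not given here. Without KI_CD replicate 1, Trib3 (0.53, adjusted p = 0.0110) and Fgf21 (0.98, adjusted p = 0.0254) passed on average. The median of the 23 was 0.33, and 0 passed between genotypes, the lowest p in the genotype average being those of Slc3a2 at 0.44 (adjusted p = 0.1002) and Vldlr at 0.56 (adjusted p = 0.140).

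**Figure D4:**
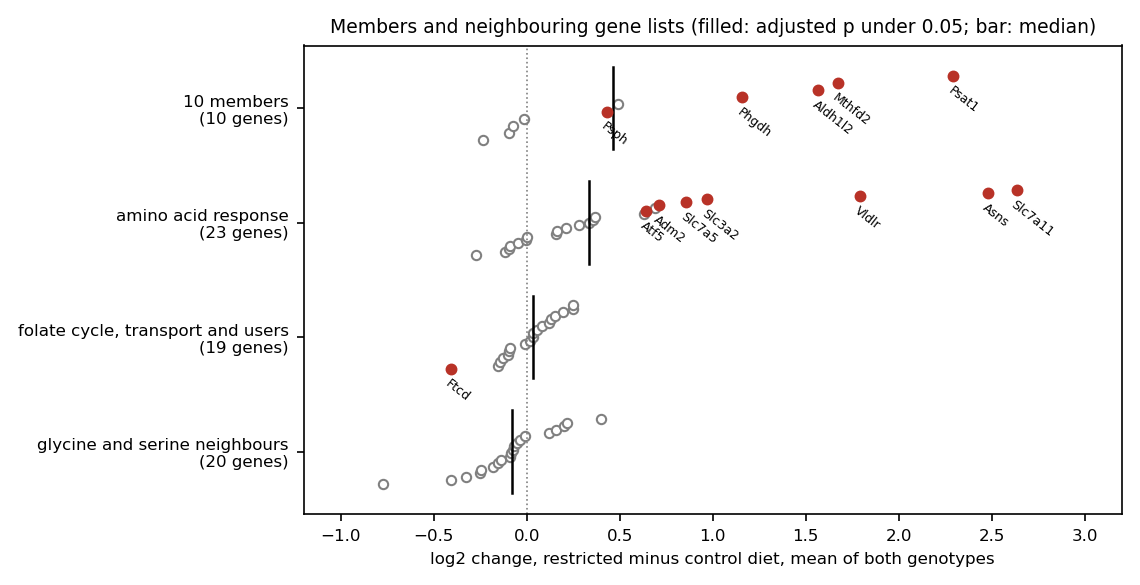
Average log2 change, restricted minus control diet, of the 10 genes and of the 3 lists, 1 point a gene, filled where adjusted p was under 0.05, with the median as a bar. Medians are 0.46 for the 10 genes, 0.33 for amino acid response, 0.03 for the folate list and -0.08 for glycine and serine neighbours.

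The genes whose levels over the 12 arrays followed each called member most closely were found among all genes by Pearson's r, a description in which the diet groups and KI_CD replicate 1 are shared by every gene. For Psat1 they were Asns (0.98), Atf5 (0.97) and Mthfd2 (0.96), and for Mthfd2 they were Psph (0.96), Psat1 (0.96) and Slc7a7 (0.95). For Psph they were Mthfd2 (0.96), Rpl6 (0.94) and Psat1 (0.91). For Aldh1l2 they were Ubqln4 (0.95), Adm2 (0.94) and Psat1 (0.93), and for Phgdh they were Aldh1l2 (0.90), Ubqln4 (0.90) and Serpina6 (0.89). In deviations from the group means, which remove the diet, Psat1 and Mthfd2 had an r of 0.85 over 12 arrays and 0.77 over the 11 without KI_CD replicate 1. Psat1 and Phgdh had 0.12 and 0.29, and Mthfd1l and Psat1 had 0.16 and -0.65.

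Among markers of liver zones, which lie in hepatocytes, 1 of 3 measured periportal markers passed with diet. Of all genes 1.21% passed on average, 0.176% in KI and 0.326% in WT. Cyp2f2 fell by 0.72 on average (adjusted p = 5.02e-04, limma), by 1.04 in KI (adjusted p = 0.00120) and by 0.39 in WT (adjusted p = 0.117). The KI call was lost with the compared groups alone (adjusted p = 0.104), and WT passed without KI_CD replicate 1 (adjusted p = 0.0482). Of 6 pericentral markers 0 passed with diet, and their median average change was -0.23. All 3 periportal and all 6 pericentral markers were below 0 in that average, as were 55.6% of all genes. The part of zonation in the members' values was not tested.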

How the data were processed

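The authors deposited 1 table of intensity values for 35512 probe sets on 12 arrays; its values are linear, and its background correction and scaling are not given in the sources used here. RNA was isolated with Trizol, cleaned on RNeasy columns and biotinylated, per the labels. Probe sets with 1 gene symbol (21789) were kept, and 1621 with several and 12102 without a symbol were left out, which gave 19938 genes; for the 999 genes with several probe sets, the one with the highest mean log2 level was taken. Entrez identifiers of 19856 genes matched the RefSeq table. Intensities were taken to log2 with no pseudocount and fitted with limma 3.58.1 in R 4.3.3, with 1 mean per group over 12 arrays (8 residual degrees of freedom, 3.14 prior), two-sided tests, and Benjamini-Hochberg adjustment over all genes with a threshold of 0.05; the number of arrays limits the precision.

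The 10 members, the gene lists, the markers and the motifs were chosen with earlier results of these data known. Genes of the lists were named if they passed in a contrast, or had one of the 4 smallest p for diet or the 2 smallest for genotype. The fit was tested on simulated data of 19938 genes, with 250 changed genes of each size. In KI_MR against KI_CD a log2 change of 0.5 was recovered for 48.8% and one of 1 for 92% of them. In the average diet effect these shares were 76.8% and 98%. The simulated noise was independent between genes and held no array apart from its group, as KI_CD replicate 1 is. The shares therefore do not give the sensitivity on the real arrays. Alternatives were quantile normalization, leaving out the dimmest 25% of genes, log2(value + 32), the mean of probe sets, a trend and robust prior, the compared groups alone, the replicate number as a block, and each array left out in turn.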

Additional observations from a re-analysis of the deposited data

Results flagged for a closer look

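The members and named list genes were searched for opposite diet changes without overlap, and Shmt2 was found. Every WT_MR array lay above every WT_CD array, as for 6.35% of all genes, and every KI_MR array below every KI_CD array, as for 6.99%. The share with both was not computed. The interaction was -0.286 on the log2 scale (limma, unadjusted p = 0.0158, adjusted p = 1), and 4.13% of all genes had an unadjusted p under 0.05. A difference between the genotypes is therefore not shown.

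A probe set annotated to both Phgdh and Gm6756, which the comparisons left out, was higher by 1.03 on the log2 scale on the restricted diet. It read 194 to 257 on the 6 control arrays and 401 to 665 on the 6 restricted arrays, and its signal cannot be assigned to 1 of the genes.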

How the results depend on the processing

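The average diet changes of Phgdh, Psat1, Mthfd2 and Aldh1l2 passed in limma under every alternative run, with each array left out in turn included (highest adjusted p 0.0477, 0.0271, 0.0399 and 0.00192); the Psph call was lost with log2(value + 32) (0.35, adjusted p = 0.0577) and in the fits named with it. Members past the threshold numbered 1 in KI_MR against KI_CD, 2 with the replicate block (Mthfd2 joined, adjusted p = 0.0442) and 0 with the compared groups alone. In WT_MR against WT_CD they numbered 1, but 2 without the dimmest genes (Psat1 joined, adjusted p = 0.0362) and 2 with the block (Phgdh joined, adjusted p = 0.0270). With the compared groups alone they numbered 3 there (Phgdh and Psat1 joined, adjusted p = 0.0392 and 0.00160). With 1 array left out they ranged from 1 to 3 in both, and from 4 to 6 in the average. Over all genes, KI_CD against WT_CD gave 16 calls, and 31 without the dimmest genes, 26 with the trend and robust prior and 0 with the compared groups alone; that last fit gave 0 for KI_MR against KI_CD (35), 131 for WT_MR against WT_CD (65) and 15 for KI_MR against WT_MR (94). The block gave 177 for KI_MR against WT_MR and 960 for the genotype average (561); under it the Ftcd calls in WT (adjusted p = 0.0554) and on the restricted diet (0.0587) were lost, and Cyp2f2 in WT (0.0447) and Gamt between genotypes (0.0370) passed. Same-numbered arrays had deviation correlations of -0.0588 to 0.244 with 9 of 18 pairs over 0.1, and 11 of 12 arrays correlated best with their own number, a hint from the data and not from the design. The arm shift in WT was 0.79 with log2(value + 32).

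With 1 array left out, calls over all genes ranged from 2 to 32 (KI_CD against WT_CD), 7 to 94 (KI_MR against KI_CD), 17 to 199 (WT_MR against WT_CD), 3 to 226 (KI_MR against WT_MR), 0 to 3 (interaction), 112 to 470 (average diet) and 138 to 1945 (average genotype). Without KI_CD replicate 1 they were 94 for KI_MR against KI_CD and 199 for WT_MR against WT_CD. Some values that missed the threshold changed sign with an array left out: in KI_CD against WT_CD, Psat1 (-0.57 to 0.47) and Mthfd2 (-0.58 to 0.056); with diet, Shmt1 in KI (-0.16 to 0.19) and on average (-0.17 to 0.0043), Aldh1l1 in WT (-0.18 to 0.012) and Shmt2 on average (-0.036 to 0.0062). The interactions of Psat1 (-0.42 to 0.62), Mthfd2 (-0.047 to 0.77) and Aldh1l2 (-0.17 to 0.19) also did, as did the diet changes of Bhmt in WT (-0.32 to 0.024) and Trib3 on average (-0.038 to 0.53). Quantile normalization turned Shmt1 in KI to 0.036, the Aldh1l2 interaction to -0.020 and Shmt2 on average to 0.017. In all, of the 10 members 8 changed sign in at least 1 such fit in KI_CD against WT_CD, 7 in KI_MR against WT_MR, 8 in the genotype average and 6 in the interaction. The cause of these changes was not tested.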
